A study of Mus musculus with 12 samples.

Results

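The 5 leukocyte microRNA (miRNA) probes described here are mmu-miR-142-3p, mmu-miR-142-5p, mmu-miR-150, mmu-miR-155 and mmu-miR-223. They were chosen by name as miRNAs of blood-derived immune cells, and they are 5 of the 599 probes in the deposited table, of which 566 name mouse miRNAs. All 5 exceeded the limit for testing, 32 units of normalised signal in at least 4 libraries, as did 226 mouse probes in all. The labels give the samples as ileum of male NOD/ShiLtJ mice, an inbred strain prone to autoimmune diabetes, at postnatal day 23. The 12 libraries fall into 3 groups of 4, namely control mice, mice labelled 1PAT antibiotics (the antibiotic group) and mice labelled cecal material transfer (the transfer group). The labels do not name the antibiotic, and they do not say whether the transfer mice had received it. Random assignment was by dam and litter, and the labels do not link libraries to litters. The p-values therefore rest on a spread that may be that of littermates. miRNAs were counted with the NanoString nCounter assay, in which each miRNA is ligated to a tag and counted through a coloured reporter without amplification.

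miRNAs are short RNAs that guide Argonaute proteins to messenger RNAs, chiefly through the seed, bases 2 to 8, and lower the output of those messages. miR-142 is made in nearly all blood-derived cells and is used as a pan-leukocyte marker. miR-150 is abundant in mature B and T lymphocytes, where it restrains the transcription factor Myb. miR-155 is induced when lymphocytes and macrophages are activated, and miR-223 is a miRNA of neutrophils and other myeloid cells. The gut wall holds all of these cells beside epithelium, muscle and vessels. The labels give ileum, whereas the design text names intestinal epithelial cells. Which of these cells entered the RNA is therefore not settled. In bulk RNA, fewer cells of a type and less RNA per cell cannot be told apart.

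RefSeq mature sequences (build GRCm38.p6) matched 4 of the 5 probes and are shown because the probes are told apart by sequence alone. Each is written 5′ to 3′ with its seed in capitals.
miR-142-5p: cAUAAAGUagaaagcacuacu
miR-142-3p: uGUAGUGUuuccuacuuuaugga
miR-155: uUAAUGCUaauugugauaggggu
miR-223: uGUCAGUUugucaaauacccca
The 4 seeds differ from each other, and none is shared with another of the 1738 mature mouse miRNAs in the RefSeq table. Both miR-142 members come from a single hairpin, Mir142, at chr11:87756864-87756927 on the plus strand, shown with the 5p arm (bases 4 to 24) and the 3p arm (bases 40 to 62) in capitals.
Mir142 hairpin: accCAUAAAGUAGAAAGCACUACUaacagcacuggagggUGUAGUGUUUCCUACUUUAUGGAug
Mir150 lies at chr7:45121757-45121821, Mir155 at chr16:84714140-84714204 within the noncoding gene Mir155hg, and Mir223 at chrX:96242817-96242926.

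Libraries of the groups differed in depth. Total counts recovered from the signal lay between 169844 and 274302 in control, 120235 and 148297 in antibiotic and 280114 and 393551 in transfer libraries. Every library of one group was thus deeper or shallower than every library of another, so depth and group cannot be told apart beyond a fit with depth as a covariate. The 33 herpesvirus probes, which have no known target in these mice and serve as background, had a median signal of 5.55 to 13.0 per library. A single herpesvirus probe reached 50.1 to 426, and the next highest reached 23.2 to 41.1. miR-142-3p, miR-150 and miR-223 lay above all herpesvirus probes in 12 of 12 libraries, miR-155 in 7 and miR-142-5p in 2. Apart from that single probe, miR-155 lay above the others in 12 and miR-142-5p in 11 of 12 libraries. Together the 5 probes held 0.627% to 1.17% of the mouse signal. Signals of different probes also reflect how well each is captured, so levels are compared between groups and not between members.

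After cecal transfer miR-142-5p and miR-155 rose against control, and against antibiotic miR-142-5p, miR-155 and miR-150 rose. The 3p arm, miR-142-3p, and the myeloid miR-223 did not pass in any comparison. No member passed between antibiotic and control, which does not show that the members were unchanged. Confidence intervals of that fit were 0.845 to 1.05-fold for miR-150, the narrowest, and 0.514 to 1.74-fold for miR-223, the widest. Changes within these intervals remain compatible with the data, as does no change. Tests are from a single limma model of log2(signal + 1) over the 12 libraries, with Benjamini-Hochberg adjustment over the 226 probes and a threshold of 0.05, and log2 changes are on that scale. Against control, 2 of 5 members passed, both higher, where 30.1% of all tested probes passed and 18.1% did so as higher. Against antibiotic, 3 of 5 passed, all higher, where 32.7% passed and 19.9% did so as higher. In antibiotic against control 0 of 5 passed, where 0.0% of all probes did and 34 of 226 had an unadjusted p under 0.05, none of them a member. The median log2 difference of the members was 0.15 for transfer against control, 0.25 for transfer against antibiotic and −0.08 for antibiotic against control, beside 0.05, 0.04 and 0.01 over all tested probes. The comparisons share libraries and are not independent of each other.

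**Figure D1:**
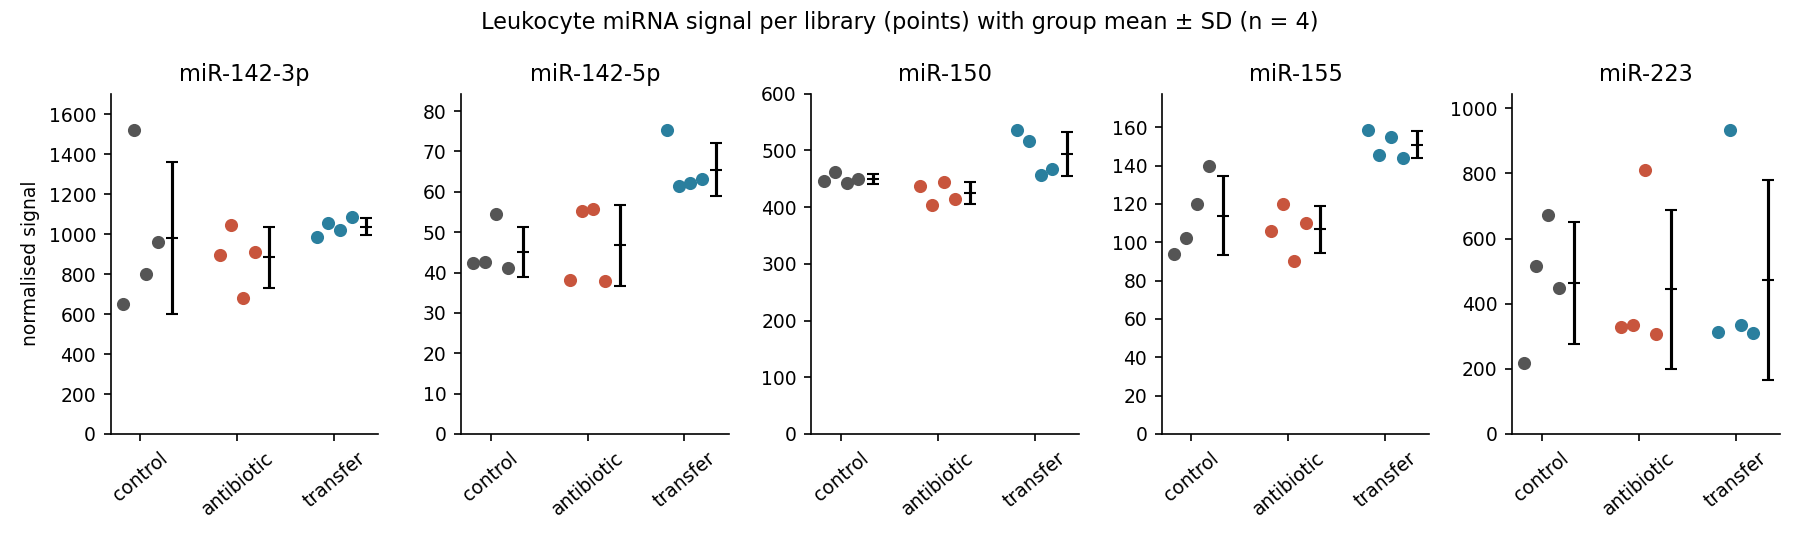
Normalised signal (vertical axis, from 0) of the 5 leukocyte miRNAs in each library, by group, with the group mean ± SD (n = 4) as a bar at the right of each group. The 4 transfer libraries lie above all other libraries for miR-142-5p and miR-155, while miR-223 has a single high library in the antibiotic and transfer groups.

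miR-155, the activation-linked member, is encoded in the host gene once known as Bic. Its signal was 93.8, 102, 120 and 140 in control replicates 1 to 4 and 106, 120, 90.4 and 110 in the antibiotic libraries. In the transfer libraries it was 159, 146, 155 and 144. The control and antibiotic libraries overlapped, and all 4 transfer libraries lay above both. The control mean was 114 ± 20.4 (SD, n = 4 here and below), the antibiotic mean 107 ± 12.4 and the transfer mean 151 ± 7.09. miR-155 rose by a log2 of 0.42 (SE 0.13, adjusted p = 0.0271) against control, or 1.34-fold with a 95% interval of 1.10 to 1.62. Against antibiotic it rose by 0.50 (SE 0.13, adjusted p = 0.0101), or 1.42-fold with an interval of 1.17 to 1.71. Antibiotic and control differed by −0.08 (adjusted p = 0.81), with an interval of 0.780 to 1.14-fold. The call against antibiotic held with each library left out in turn (adjusted p up to 0.0322). The call against control was lost without control replicate 1 (adjusted p = 0.0852) or 2 (0.0722) and without transfer replicate 1 (0.0710) or 3 (0.0642). The counts behind these values were 47 to 74 in antibiotic, 86 to 122 in control and 187 to 244 in transfer libraries.

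miR-142-5p is the 5p arm of the pan-leukocyte hairpin and gave the lowest signal of the 5 probes. Its signal was 42.3, 42.5, 54.5 and 41.2 in control and 38.3, 55.2, 55.8 and 37.8 in antibiotic libraries. In transfer libraries it was 75.3, 61.4, 62.2 and 63.1, above every library of the other groups. Group means were 45.1 ± 6.25 in control, 46.8 ± 10.1 in antibiotic and 65.5 ± 6.59 in transfer. It rose by 0.53 (SE 0.17, adjusted p = 0.0282) against control, or 1.45-fold with an interval of 1.13 to 1.85. Against antibiotic it rose by 0.50 (SE 0.17, adjusted p = 0.0332), or 1.41-fold with an interval of 1.10 to 1.81. Of the 5 members 2 had transfer libraries all above control, where the groups did not overlap for 29.6% of all tested probes and lay higher for 16.8%. All transfer libraries lay above antibiotic for 3 of 5, where 33.6% of all tested probes did not overlap and 19.9% lay higher. For antibiotic against control the groups overlapped for all 5 members, where 8.41% of tested probes did not overlap and 6.19% lay higher. Separations like those of miR-155 and miR-142-5p were thus shared by many probes. Antibiotic and control overlapped and differed by 0.04 (adjusted p = 0.963).

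The signal of miR-142-5p rests on few counts. These were 22 to 34 in antibiotic, 36 to 50 in control and 75 to 107 in transfer libraries. The exact 95% Poisson interval of antibiotic replicate 1, at 22 counts, ran from 24.0 to 57.9 units of signal, and that of transfer replicate 4, at 107 counts, from 51.7 to 76.3. Such intervals cover counting error only. Within groups miR-142-5p varied about as much as counting error alone would give, the chi-square over its degrees of freedom being 0.941, against a median of 2.37 over the tested probes. The median herpesvirus signal was 8.50 to 12.6 in control, 7.69 to 13.0 in antibiotic and 5.55 to 8.77 in transfer libraries. These ranges overlap, and the medians also rest on few counts and depend on what a count is worth in each library. With the median herpesvirus signal subtracted from every library, the rises were 0.71 against control (adjusted p = 0.0186) and 0.70 against antibiotic (adjusted p = 0.0174). The part of background in the rises was not tested. The call against control was lost without control replicate 1 (adjusted p = 0.0666), 2 (0.0637) or 4 (0.0582) and without transfer replicate 1 (0.0807), 3 (0.0509) or 4 (0.0557). The call against antibiotic was lost without antibiotic replicate 1 (adjusted p = 0.0908) or 4 (0.0947) and without transfer replicate 1 (0.101), 3 (0.0600) or 4 (0.0611).

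miR-142-3p, the other arm of the hairpin, gave the highest signal of the 5 probes in every group, ranking 47 of the 226 tested probes by mean signal. Control libraries had 649, 1522, 799 and 960, and antibiotic libraries had 896, 1048, 679 and 913. Transfer libraries had 986, 1056, 1020 and 1087, a narrow band inside the range of the controls. Group means were 982 ± 381 in control, 884 ± 153 in antibiotic and 1037 ± 43.6 in transfer, so the coefficient of variation was 38.8%, 17.3% and 4.20%. The log2 difference was 0.15 (adjusted p = 0.661) for transfer against control, with an interval of 0.824 to 1.50-fold. It was 0.25 (adjusted p = 0.395) for transfer against antibiotic, with an interval of 0.880 to 1.60-fold. These intervals include the rises measured for miR-142-5p. The highest control library, replicate 2, set the control mean. Without it the difference between transfer and control was 0.39 (adjusted p = 0.0685), and without control replicate 1, the lowest, it was −0.02.

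The 2 arms of miR-142 were set against each other within each library, which removes the scaling of the table. The log2 ratio of the 5p to the 3p signal averaged −4.35 ± 0.60 in control, −4.22 ± 0.45 in antibiotic and −3.97 ± 0.19 in transfer libraries. The ratio includes how well each probe is captured and is read only between groups. It was −3.91, −5.13, −3.85 and −4.51 in control libraries and −3.69, −4.08, −4.01 and −4.08 in transfer libraries. The groups overlapped, and the ratio was not shown to differ between transfer and control (difference 0.38, SE 0.31, exact two-sided permutation p = 0.343) or between transfer and antibiotic (0.25, SE 0.24, exact p = 0.343). A call for the 5p arm and none for the 3p arm is therefore not shown to be a difference between the arms. Across the 12 libraries the signals of the arms hardly ran together (Pearson r = 0.10, given as a description). The spread of miR-142-5p within groups was near counting error, so this low value does not show that the arms vary separately.

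**Figure D2:**
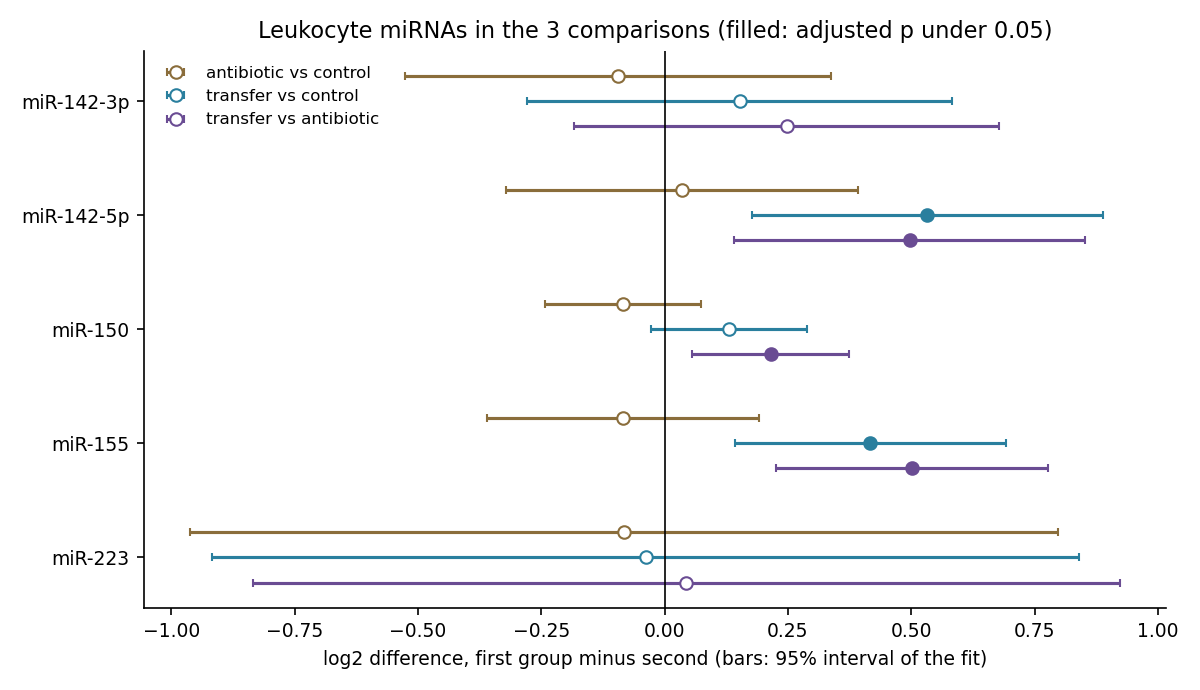
Log2 difference (horizontal axis) of each leukocyte miRNA in the 3 comparisons, with the 95% interval of the fit as a bar and filled symbols for adjusted p under 0.05. Filled symbols are miR-142-5p and miR-155 in both transfer comparisons and miR-150 against antibiotic, and the intervals of miR-223 are the widest of the 5.

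miR-150, the lymphocyte member, had the narrowest spread. Its signal was 445, 462, 443 and 450 in control and 437, 404, 444 and 414 in antibiotic libraries. In transfer libraries it was 536, 517, 457 and 467, all above the antibiotic libraries but overlapping with control. Group means were 450 ± 8.71 in control, 425 ± 18.7 in antibiotic and 494 ± 38.4 in transfer. miR-150 rose by 0.21 (SE 0.07, adjusted p = 0.0378) in transfer against antibiotic, or 1.16-fold with an interval of 1.04 to 1.30. Against control the difference was 0.13 (adjusted p = 0.213), and antibiotic against control had −0.08 (adjusted p = 0.601). The call was lost without antibiotic replicate 1 (adjusted p = 0.0515), 2 (0.0800) or 4 (0.0915) and without transfer replicate 1 (0.107) or 2 (0.0863). edgeR on the recovered counts gave a log2 change of 0.19 (adjusted p = 0.0727). The within-group SD of miR-150 was 0.08 on the log2 scale, the 6th lowest of the 226 tested probes.

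miR-223, the myeloid member, differed more between mice of a group than between groups. Control libraries had 219, 515, 673 and 448. Antibiotic libraries had 327, 335, 810 and 305, and transfer libraries had 313, 934, 336 and 311. Replicate 3 of the antibiotic group and replicate 2 of the transfer group were 2.48 and 2.98 times the median of the others in their group, which lay close together. Group means were 464 ± 189 in control, 444 ± 244 in antibiotic and 473 ± 307 in transfer, with log2 differences of −0.04 for transfer against control (adjusted p = 0.948), 0.04 for transfer against antibiotic (0.952) and −0.08 for antibiotic against control (0.963). The interval for transfer against control ran from 0.530 to 1.79-fold, so changes of the size called for miR-155 could not have been told from none. Without transfer replicate 2 the transfer difference was −0.42 against control and −0.34 against antibiotic (adjusted p = 0.447 and 0.526). The within-group SD of 0.71 on the log2 scale ranked 220 of 226 from the lowest, against a median of 0.19. The counts of 188 to 1384 make this spread far larger than counting error, the chi-square over its degrees of freedom being 147.

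**Figure D3:**
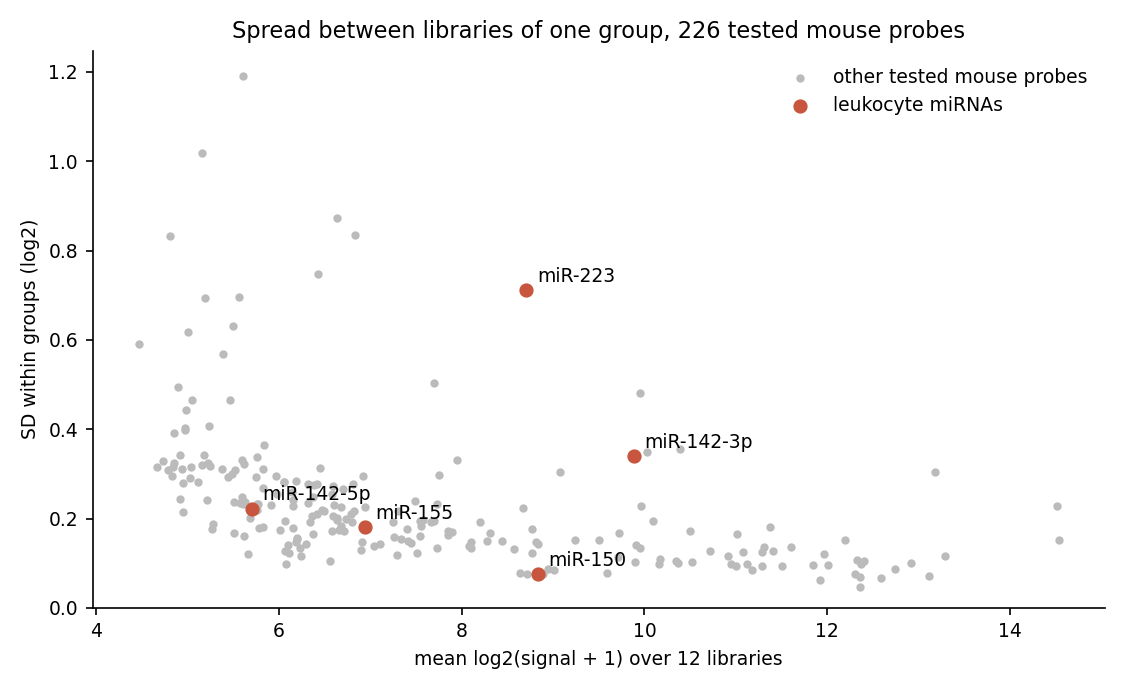
Within-group SD of log2(signal + 1) (vertical axis) against the mean over 12 libraries (horizontal axis) for the 226 tested probes, with the leukocyte miRNAs in colour. miR-223, at 0.71, and miR-142-3p, at 0.34, stand above most probes of like signal, whereas miR-150, at 0.08, lies at the lower edge.

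Other ratios between members overlapped between the groups in each comparison. Altogether 5 ratios were compared in 3 pairs of groups, and 0 of the 15 tests passed after adjustment. This count says little, since a single ratio at the smallest possible p would have an adjusted p of 0.429, and 9 of the 15 would have to reach that p for any to pass. The nearest was miR-155 over miR-142-3p in transfer against antibiotic, higher by 0.25 (SE 0.08, exact two-sided permutation p = 0.0571, adjusted p = 0.857), in a design of 4 against 4 libraries whose p cannot go below 0.0286. Against control that ratio differed by 0.27 (exact p = 0.571), and by −0.02 without control replicate 2. The lymphoid to myeloid ratio, miR-150 over miR-223, averaged 0.07 ± 0.69 in control, 0.07 ± 0.62 in antibiotic and 0.24 ± 0.74 in transfer libraries on the log2 scale.

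With group means removed, the correlations among the 10 pairs of members over the 12 libraries lay between −0.23 and 0.40, the highest being that of miR-150 and miR-223. The spread of miR-142-5p, miR-150 and miR-155 within groups was near counting error, with chi-square over degrees of freedom of 0.941, 1.55 and 1.62, so low values for their pairs do not show that the miRNAs vary separately. miR-223 and miR-142-3p, the most variable members, each ran with a probe outside the list. The probe most like miR-223 was miR-203, known from skin epithelium, with Pearson r = 0.94, and 0.95 with group means removed. miR-203 had 1417 in control replicate 3, 1498 in antibiotic replicate 3 and 1781 in transfer replicate 2, the same libraries in which miR-223 was highest in each group, a coincidence looked for after the values were seen. Next were miR-146a, an inflammation-induced miRNA, at r = 0.73 and miR-1927 at 0.68. miR-146a also was highest in those libraries, with 352, 313 and 363. The probe most like miR-142-3p was that shared by miR-1937a and miR-1937b, at r = 0.94, with 2248 in control replicate 2, the highest library for both. miR-872 (0.65) and miR-486 (0.53) followed.

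For the members that rose, the likeness was weaker once group means were removed. miR-155 was most like the smooth muscle miRNA miR-143 (r = 0.92, and 0.75 with group means removed), miR-24 (0.90 and 0.68) and miR-369-3p (0.89 and 0.67). miR-142-5p was most like miR-377 (0.85 and 0.57), miR-27a (0.84 and 0.50) and miR-193b (0.83 and 0.80). miR-150 was most like miR-340-5p (0.76 and 0.48), miR-30c (0.76 and 0.26) and the erythroid miR-451 (0.76 and 0.54). These correlations are descriptions over 12 libraries that share depth and scaling within each library, and likeness to a probe says nothing on shared control.

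**Figure D4:**
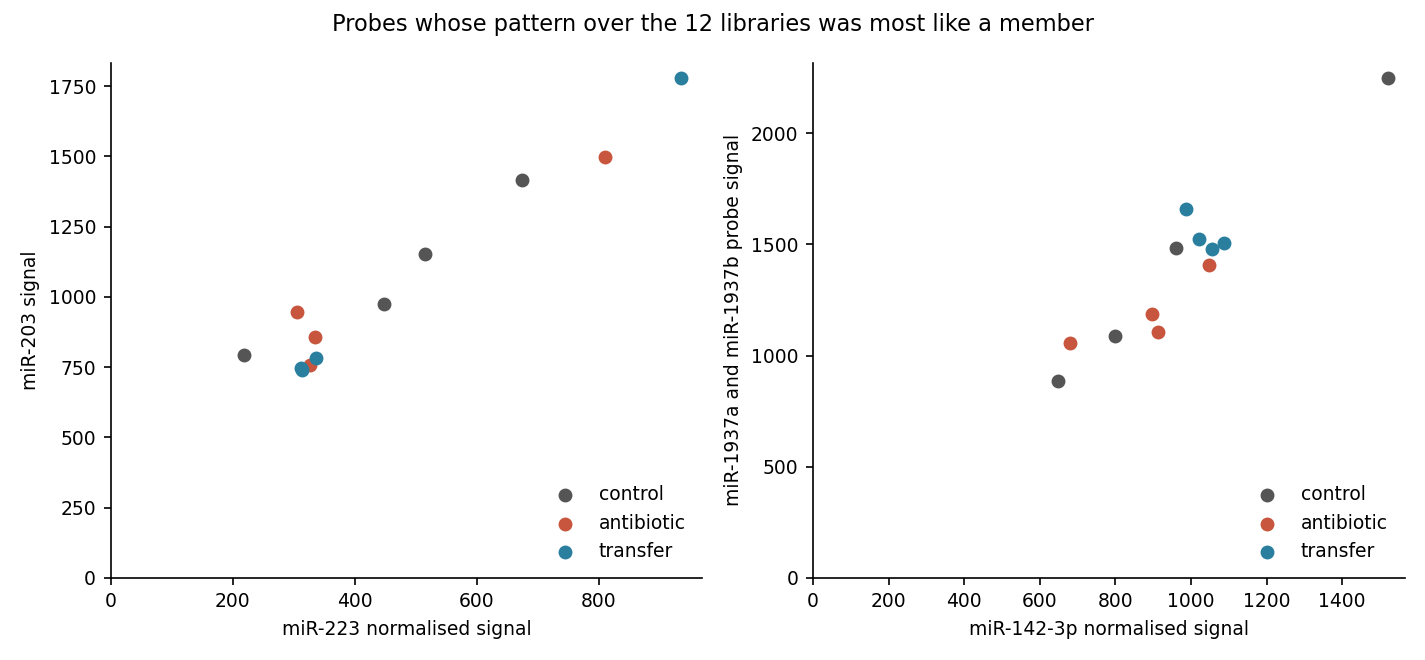
Signal of miR-203 against miR-223 (left) and of the probe shared by miR-1937a and miR-1937b against miR-142-3p (right), with a point for each of the 12 libraries coloured by group. Over the 12 libraries the points rise together in both panels (r = 0.94 on the log2 scale in each). In the right panel the transfer libraries lie close together and do not rise among themselves, and the highest point is control replicate 2.

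Counts of other immune miRNAs that passed lay near those over all tested probes, of which 18.1% were called higher and 11.9% lower against control and 19.9% and 12.8% against antibiotic. Of 4 tested probes of the list of other lymphocyte and leukocyte miRNAs, 1 rose and 0 fell against control, and 1 rose and 1 fell against antibiotic, with median log2 differences of 0.16 and 0.12. miR-181a, which tunes T cell receptor signalling, was the riser, from 1334 ± 130 in control and 1366 ± 85.5 in antibiotic to 1742 ± 87.2 in transfer (log2 0.39 and 0.35, adjusted p = 0.00183 and 0.00466). With quantile normalisation it lost both calls, and with median centring that against antibiotic. Its relative miR-181c averaged 64.8 ± 10.1 in control, 96.7 ± 3.97 in antibiotic and 75.9 ± 6.22 in transfer libraries. Transfer was called lower than antibiotic (log2 −0.35, adjusted p = 0.0385) but lay above control (0.23, adjusted p = 0.18, not called). Antibiotic lay above control by 0.58 (adjusted p = 0.0647, not called). With TMM scaling miR-181c lost the call against antibiotic (adjusted p = 0.24). The other tested probes of the list did not pass. Of 6 tested immune activation probes, 1 rose and 0 fell against control, and 1 rose and 1 fell against antibiotic. The median log2 differences of this list were 0.03 and −0.06, beside 0.05 and 0.04 over all tested probes. miR-146b, which dampens Toll-like receptor signalling, rose by 0.49 and 0.37 (adjusted p = 0.00369 and 0.0192), and median centring and quantile normalisation each ended the call against antibiotic. miR-21, induced in inflammation, averaged 2689 ± 304 in control, 3211 ± 193 in antibiotic and 2331 ± 196 in transfer libraries. It was lower by 0.46 against antibiotic (adjusted p = 0.00141). Against control it had −0.20 (adjusted p = 0.105, not called), and antibiotic lay above control by 0.26 (adjusted p = 0.131, not called). With quantile normalisation miR-21 was also called lower against control (log2 −0.26, adjusted p = 0.0188).

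Some markers of other cell types in the ileum also differed in the transfer comparisons. The summed signal of 7 epithelial probes was 28811 to 41500 in control, 31823 to 36817 in antibiotic and 25196 to 29435 in transfer libraries, with 5 of 7 lower in transfer than in control, where 11.9% of all tested probes were called lower, and 4 of 7 lower than in antibiotic, where 12.8% were. These were miR-194, miR-141, miR-200c and miR-429 in both comparisons and miR-192 against control, and with TMM factors 2 remained called in each comparison, as did 2 against control with quantile normalisation. The median log2 difference of the epithelial list was −0.29 against control and −0.28 against antibiotic, beside 0.05 and 0.04 over all tested probes. The summed signal of 5 smooth muscle and fibroblast probes was 28183 to 35486, 31969 to 34402 and 38997 to 46958. Within that sum miR-145 alone averaged 19980 in control, 22560 in antibiotic and 30020 in transfer libraries. Of 4 tested probes miR-143, miR-145 and miR-199a-3p were higher in transfer against both groups. miR-199a-5p did not pass (adjusted p = 0.169 and 0.0931). Over all tested probes 18.1% were called higher against control and 19.9% against antibiotic. The 3 erythroid probes summed to 1128 to 1381, 1208 to 1492 and 1466 to 1981, with miR-144 and miR-486 higher against control and miR-144, miR-451 and miR-486 against antibiotic. Of the endothelial pair miR-126-5p was lower in both comparisons and miR-126-3p did not pass, and TMM factors ended both calls of miR-126-5p. Of 3 tested striated muscle probes miR-499 was higher against control and miR-1 against antibiotic. miR-1 averaged 1351 in control, 763 in antibiotic and 1191 in transfer libraries. Transfer thus lay below control for miR-1, without a call (log2 −0.17, adjusted p = 0.616). With median centring the erythroid, smooth muscle and striated muscle calls against antibiotic were lost, as were those of miR-143 and miR-199a-3p against control. The part of these shifts in the rises of miR-155, miR-142-5p and miR-150 was not tested. The share of each cell type in these libraries was not measured.

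The size of the rises depended on how depth and scaling were handled. With log2 depth as a covariate the rises were as large or larger but their errors grew. miR-155 had 0.60 (SE 0.21, adjusted p = 0.0827) against control and 0.87 (SE 0.36, adjusted p = 0.290) against antibiotic, and miR-142-5p 0.81 (SE 0.26, adjusted p = 0.0685) and 1.07 (SE 0.45, adjusted p = 0.290). miR-223, at −0.04 and 0.04 without the covariate, had 0.89 (SE 0.60, adjusted p = 0.388) and 1.96 (SE 1.05, adjusted p = 0.387). As the groups did not overlap in depth, these estimates do not separate depth from group. In that fit 23 probes were called against control and 0 against antibiotic, where limma without the covariate called 68 and 74. With the counts thinned to the shallowest library in a single draw, miR-155 had 0.25 (adjusted p = 0.309) and 0.30 (adjusted p = 0.174). Over all tested probes the 68 calls against control were 41 higher and 27 lower, but 28 and 28 with median centring, 24 and 23 with quantile normalisation and 38 and 14 with TMM factors. The 74 against antibiotic were 45 and 29, but 22 and 32, 25 and 27, and 60 and 12. All 5 rises called among the members kept their sign in every alternative in which the probe was tested.

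**Figure D5:**
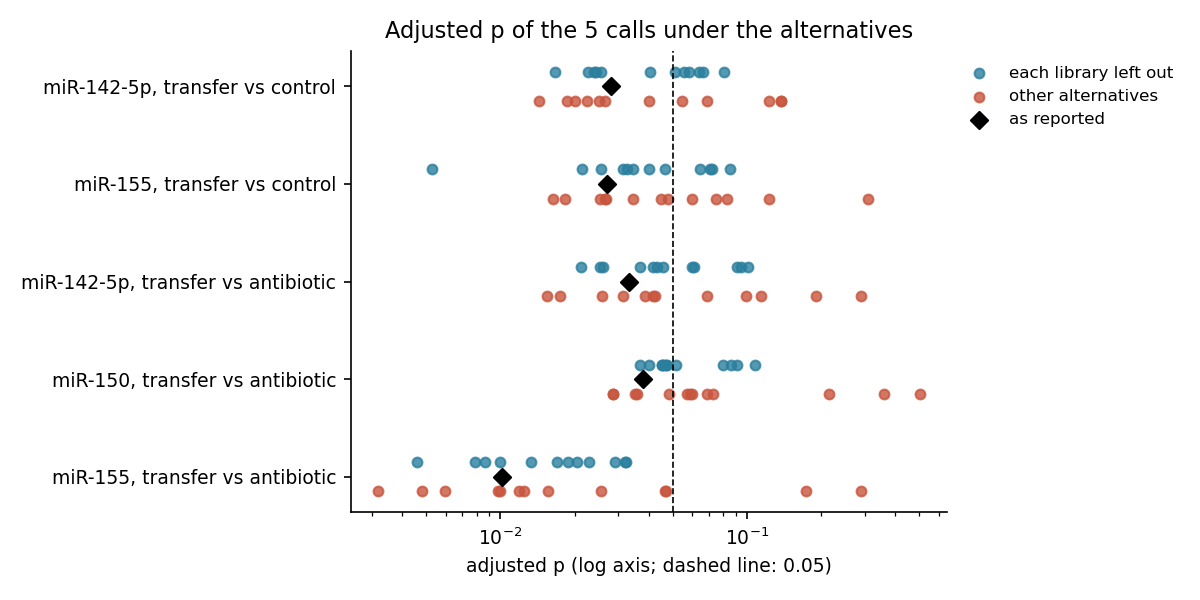
Adjusted p (horizontal log axis, dashed line at 0.05) of the 5 calls among the leukocyte miRNAs as reported (diamonds), with each library left out (blue) and under the other alternatives (red). miR-155 in transfer against antibiotic kept its call in 12 of 12 fits with a library left out and in 11 of 13 others, and miR-150 kept its call in 7 of 12 and 5 of 13.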

How the data were processed

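The table holds normalised signal that the authors deposited for 12 libraries of the nCounter mouse miRNA panel, version 1.5, per the labels' protocols. Neither software nor scaling is stated there. Every signal was a whole count times 1 factor per library (100% of values whole within 0.01 of a count), 1 count being worth 0.590 to 1.92 units. The 100 most abundant probes summed to 220014 to 222565 in all libraries. As the values are scaled counts, limma 3.58.1 in R 4.3.3, with variances that follow the mean, was fitted to log2(signal + 1) of mouse probes above 32 in at least 4 libraries. Alternatives on recovered counts used edgeR (4.0.16) or DESeq2 (version 1.42.0). Ratios were tested with exact two-sided permutations, adjusted over 15 tests. The fit was tested on simulated data with 60 of 226 probes changed in the transfer group. It recovered 20% of 1.25-fold, 72% of 1.5-fold and 97.2% of 2-fold changes, and 3.69% of its calls were false. Simulated probes shared a single dispersion, whereas the measured spread differed widely between probes. No label pairs libraries across groups. Replicate numbers follow the order of the samples.

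Members and lists were chosen with earlier results of these data known. Named are the 5 members, called probes of the lists, the most abundant probe of each list, and for each member the 3 probes of highest Pearson correlation. Leukocyte probes were matched by name to RefSeq, with miR-155 read as the 5p and miR-223 as the 3p arm.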

Additional observations from a re-analysis of the deposited data

Results flagged for a closer look

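Values of the members and of their log2 ratios were checked within each group of 4 for a library far from the others, by whether its gap to the nearest, over the group's range, exceeded Dixon's 95% critical value. Of 30 groups of values 8 met this, where chance flags about 1 in 20 groups, and ratios share members with each other and with the single probes. miR-223 was far above the others in antibiotic replicate 3 (809.6) and in transfer replicate 2 (933.6). The log2 ratio of miR-223 to miR-142-3p was accordingly high in the same libraries, at 0.25 and −0.18, and the log2 ratio of miR-150 to miR-223 was low in antibiotic replicate 3, at −0.86. miR-142-5p was high in control replicate 3 (54.5) and in transfer replicate 1 (75.3), in both cases on counts whose 95% Poisson intervals reach the other libraries of the group. The log2 ratio of miR-155 to miR-142-3p was low in control replicate 2, at −3.89, the library with the highest miR-142-3p.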

How the results depend on the processing

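The count of members called was 2 for transfer against control and became 1 with median centring, no filter or a filter of 100 (which left miR-142-5p untested), 0 with quantile normalisation, log2 depth, thinning or DESeq2, and 0 to 2 with a library left out. Against antibiotic it was 3 and became 2 with no filter, a filter of 100, a fit of only these groups or edgeR, 1 with median centring, quantile normalisation or DESeq2, 0 with log2 depth or thinning, and 1 to 3 with a library left out. No member was called in antibiotic against control in any of these fits. The calls lost had these log2 changes. For miR-155 against control they were 0.35 with median centring, 0.34 with quantile normalisation, 0.60 with log2 depth, 0.25 with thinning and 0.36 with DESeq2 (0.33 to 0.52 with a library left out), and against antibiotic 0.87 with log2 depth and 0.30 with thinning. For miR-142-5p against control they were 0.40 with quantile normalisation, 0.53 with no filter, 0.81 with log2 depth, 0.48 with thinning and 0.50 with DESeq2 (0.46 to 0.62). For miR-142-5p against antibiotic they were 0.41 with median centring, 0.42 with quantile normalisation, 1.07 with log2 depth, 0.51 with thinning and 0.45 with DESeq2 (0.41 to 0.59). For miR-150 against antibiotic they were 0.13 with median centring, 0.21 with quantile normalisation, no filter or a fit of only these groups, 0.30 with log2 depth, 0.23 with thinning, 0.19 with edgeR and 0.18 with DESeq2 (0.17 to 0.25). The cause was not tested. TMM factors moved the median of all tested probes to 0.12 and 0.18 in the transfer comparisons, so their values for members are relative to that shift.

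Values that were not called changed sign as follows. In antibiotic against control, miR-142-5p had −0.0186 with quantile normalisation, −0.0297 with TMM factors, −0.26 with log2 depth and −0.0272 with thinning (−0.0561 to 0.13 with a library left out), and leaving out a library gave −0.27 to 0.14 for miR-142-3p, −0.17 to 0.019 for miR-155 and −0.41 to 0.13 for miR-223. miR-223 in transfer against control had 0.034 with TMM factors and 0.89 with log2 depth (−0.42 to 0.18), and against antibiotic −0.0416 with median centring and −0.0588 with quantile normalisation (−0.34 to 0.38). miR-142-3p against control ranged from −0.0222 to 0.39. Of the ratios over miR-142-3p in antibiotic against control, that of miR-155 was −0.0001 with background subtracted and −0.0042 with thinning, that of miR-150 −0.10 and that of miR-223 −0.0403 with thinning. With a library left out, ratio differences, in the order antibiotic minus control, transfer minus control and transfer minus antibiotic, ranged from −0.21 to 0.18, −0.24 to 0.15 and −0.14 to 0.11 for miR-150 over miR-142-3p, from −0.44 to 0.30, −0.57 to 0.10 and −0.58 to 0.25 for miR-223 over miR-142-3p, and from −0.23 to 0.32, −0.0543 to 0.53 and −0.14 to 0.53 for miR-150 over miR-223. They ranged from −0.27 to 0.12 and −0.0169 to 0.37 for miR-155 over miR-142-3p in the first 2 comparisons and from −0.13 to 0.30 for the arms of miR-142 in the first. Over all tested probes, calls in antibiotic against control numbered 0, with 1 under quantile normalisation or without the variance trend, 3 with DESeq2 and 0 to 8 with a library left out. Transfer against control had 68, with 23 under log2 depth and 42 with thinning, and transfer against antibiotic 74, with 161 of 566 without a filter and 0 under log2 depth. No paired analysis was possible because the labels give no number or litter that links libraries of different groups.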
